A study of Rattus norvegicus with 2 samples.

Results

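The 10 genes described here belong to the NF-κB pathway and were followed in single cardiac cells of the neonatal rat: the IκB genes *Nfkbia*, *Nfkbib*, *Nfkbie* and *Nfkbiz*, the deubiquitinase gene *Tnfaip3*, and the subunit genes *Nfkb1*, *Nfkb2*, *Rel*, *Rela* and *Relb*. They were taken by symbol from the 25399 genes of the count table, and each symbol was found there. Hearts came from Sprague-Dawley rats of 1 to 3 days of age, with males and females pooled, and a Percoll gradient was used to enrich intrinsic cardiac adrenergic (ICA) cells, the cardiac cells that make catecholamines. The cells were plated and cultured before treatment. The treated cells received lipopolysaccharide (LPS, the bacterial ligand of TLR4) at 1 µg/mL for 2 h, and the control cells received saline for 2 h. Whether the cells of both conditions came from the same pool is not stated. Cells of both conditions had been dissociated from the hearts with trypsin and were digested with trypsin again after treatment. Each condition gave 1 single-cell library (Chromium 3′ kit, which reads the 3′ end of transcripts), so there were no replicates, and the design asked how LPS changes expression in these cells. A difference between the libraries therefore compares 2 libraries, and effects of treatment, pooled animals and library preparation cannot be told apart.

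NF-κB is a family of dimers built from the proteins p50 (from *Nfkb1*), p52 (from *Nfkb2*), RelA, c-Rel and RelB. In resting cells IκB proteins hold the dimers in the cytoplasm; when TLR4 or a cytokine receptor is engaged, the IκB kinase complex marks IκBα for degradation and the dimers enter the nucleus. Several genes of the inhibitors and of the subunits themselves are known targets of the pathway, which makes *Nfkbia* transcript a common readout of recent NF-κB activity in cardiac and immune cells.

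The promoters were examined first, because κB sites are the letters through which these genes can answer to their own proteins. RefSeq promoters, running from 250 bases before to 50 bases after the annotated start on the GRCr8 assembly, were matched for 9 of the 10 genes; *Relb* was not matched. The strict κB consensus of 10 bases, searched on both strands, was found in 7 of the 9. Of all 33469 RefSeq promoters of full length, whether or not their genes were counted here, 4.18% held it. *Nfkbib* and *Rela* were the members without it. A looser form, GGG and CC with any 5 bases between, of which every strict match is also an example, was found in 9 of 9 members, and it was also present in 47.3% of all promoters. Shown here are the 3 members whose level differed most between the libraries and the 2 that differed least, with strict matches in capitals; each lies on the strand of its gene, from chr6:78597023-78597322 (minus strand) for *Nfkbia*, chr9:22947823-22948122 (minus) for *Nfkbie*, chr1:15543930-15544229 (minus) for *Tnfaip3*, chr14:101921889-101922188 (minus) for *Rel* and chr1:212354086-212354385 (plus) for *Rela*.
Tnfaip3: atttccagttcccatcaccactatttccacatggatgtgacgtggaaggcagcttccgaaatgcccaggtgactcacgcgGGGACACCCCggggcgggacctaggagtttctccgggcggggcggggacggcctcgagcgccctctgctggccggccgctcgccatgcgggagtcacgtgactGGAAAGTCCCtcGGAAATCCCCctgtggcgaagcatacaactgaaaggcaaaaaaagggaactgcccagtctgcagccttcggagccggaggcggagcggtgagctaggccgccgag
Nfkbia: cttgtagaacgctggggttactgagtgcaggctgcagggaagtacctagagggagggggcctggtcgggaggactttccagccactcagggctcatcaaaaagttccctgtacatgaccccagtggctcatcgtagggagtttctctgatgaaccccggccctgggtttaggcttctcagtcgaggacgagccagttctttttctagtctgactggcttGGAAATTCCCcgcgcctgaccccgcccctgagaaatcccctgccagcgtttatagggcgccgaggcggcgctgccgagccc
Nfkbie: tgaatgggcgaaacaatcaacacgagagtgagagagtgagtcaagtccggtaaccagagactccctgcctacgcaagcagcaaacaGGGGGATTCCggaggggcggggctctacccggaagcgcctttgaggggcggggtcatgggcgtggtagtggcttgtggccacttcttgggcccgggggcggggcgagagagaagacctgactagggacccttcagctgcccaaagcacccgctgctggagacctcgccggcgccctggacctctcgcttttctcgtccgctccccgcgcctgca
Rel: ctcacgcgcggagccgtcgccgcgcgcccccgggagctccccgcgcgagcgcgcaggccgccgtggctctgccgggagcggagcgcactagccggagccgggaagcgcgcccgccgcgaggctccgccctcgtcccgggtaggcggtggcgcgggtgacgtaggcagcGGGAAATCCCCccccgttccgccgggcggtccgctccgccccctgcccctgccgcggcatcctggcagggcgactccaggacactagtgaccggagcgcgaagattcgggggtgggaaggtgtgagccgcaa
Rela: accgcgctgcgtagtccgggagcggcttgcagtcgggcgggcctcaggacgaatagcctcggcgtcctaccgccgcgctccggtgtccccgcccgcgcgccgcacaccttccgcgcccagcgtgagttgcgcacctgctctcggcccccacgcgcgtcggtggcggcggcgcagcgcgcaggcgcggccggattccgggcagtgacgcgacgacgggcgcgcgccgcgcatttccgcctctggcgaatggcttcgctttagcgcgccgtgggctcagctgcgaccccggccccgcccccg

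*Tnfaip3* held 3 separate matches, which began 170, 67 and 55 bases before the start, and 0.469% of all promoters held matches at 2 or more places. *Nfkbia* held 1 match, GGAAATTCCC, which began 31 bases before the start. In *Nfkbie* the match GGGGGATTCC began 164 bases before the start. The 2 matches of *Rel* overlapped by all but 1 base and together span the capitals of its sequence. Among the members not printed, *Nfkbiz* held GGGAATTTCC 13 bases before the start, *Nfkb1* held the same letters 3 bases after it, and *Nfkb2* held GGGACTTTCC 20 bases before it. Over all clustered cells the members without a strict match, *Rela* and *Nfkbib*, were 2.02-fold and 2.97-fold higher with LPS. *Rel*, which held the motif, was below both at 1.56-fold. The other members with a match were above both, from 3.57-fold for *Nfkbiz* to 13.4-fold for *Tnfaip3*. Whether the letters go with the size of the difference was not tested. Among genes other than the members, 14.5% of the 296 promoters of genes at least 2-fold higher with LPS held the strict consensus, as did 4.74% of the 8160 promoters of genes that changed by less than 2-fold. The share was 3.69% of the 650 promoters of genes at 0.5-fold or less, and 4.99% of the 9106 promoters of all these counted genes. A match is a stretch of letters, and binding was not measured.

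In control, 11531 cells gave 152624585 UMIs (unique molecular identifiers, each standing for 1 captured transcript), with a median depth of 12479 per cell. With LPS, 12689 cells gave 127580475 UMIs, with a median depth of 9432 per cell. The authors' 11 clusters, numbered 0 to 10, were used as deposited, and they covered 11529 control and 12681 LPS cells. Clusters 0, 1 and 7 carry the name fibroblast, clusters 4 and 5 endothelial, cluster 6 macrophages, cluster 3 ICA and cardiomyocyte, and clusters 2, 8, 9 and 10 carry no cell type. Marker genes went with the names that were given: in the control library the summed level of 7 fibroblast genes was 11531 CPM in cluster 0, that of 8 macrophage genes was 1857 CPM in cluster 6 against 14.7 to 30.1 CPM in the other clusters with at least 50 cells per library, and that of 7 cardiomyocyte genes was 7015 CPM in cluster 3 (CPM, UMIs per 1000000 UMIs of the class). In that library the 6 endothelial genes of the table summed to 1805 and 1351 CPM in clusters 4 and 5 and to 72.9 to 144 CPM elsewhere. Cluster 9, which has no name, had the highest sum of fibroblast genes, 17199 CPM, together with 1156 CPM of cardiomyocyte genes. Of the other clusters without a name, cluster 2 had the highest control sums of pericyte genes (1221 CPM) and smooth muscle genes (2429.6 CPM). Cluster 8 had the highest of mesothelial genes (575 CPM) and cluster 10 of Schwann cell genes (577 CPM). The 4 ICA genes *Dbh*, *Th*, *Ddc* and *Pnmt* summed to 75.2 CPM in cluster 3 in control and to 81.9 CPM with LPS. In the other clusters they summed to 1.6 to 8.89 CPM in control and to 0 to 3.58 CPM with LPS. *Th* had no UMI in cluster 3 of either library, as in most other clusters. The libraries shared 194 barcodes (1.68% of control and 1.53% of LPS barcodes), of which 76 lay in the same cluster.

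Fibroblast transcripts were also read in other clusters. In cluster 3 each of the 7 fibroblast markers stood at 21.2 to 46.8% of its level in cluster 0 in the control library and at 18.8 to 53.2% with LPS, and in cluster 6 the ranges were 28.5 to 42.6% and 23.7 to 35.8%. The 8 macrophage markers in cluster 3 stood at 0 to 1.14% of their level in cluster 6. Free RNA, cell doublets and transcription by the cells of the cluster were not separated, and their part in the levels given here was not tested.

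Levels of the members were higher with LPS in nearly every class of cells. A gene was counted in a cluster when it had at least 50 UMIs there in both libraries together, and called higher when its level with LPS was at least 2-fold that of control, since no test is possible with 1 library per condition. In the largest fibroblast cluster, cluster 0, 10 members were counted and 9 were at least 2-fold higher, with *Rel* below that fold; 3.43% of the 12247 genes counted there were higher by this rule. No member was at 0.5-fold of control or less in cluster 0, where 9.01% of genes were. Cluster 1 had 8 of 8 counted members higher, with 3.22% of all genes. Cluster 2 had 6 of 7 (2.83% of all genes), cluster 3 had 5 of 6 (1.68%), cluster 4 had 6 of 8 (2.63%) and cluster 5 had 6 of 7 (4.19%). Macrophages, cluster 6, had 6 of 6 (4.81%) and none at 0.5-fold or less, as 12.1% of genes were there. The small clusters had 5 of 6 (cluster 7, 4.56%), 5 of 6 (cluster 8, 2.35%), 2 of 2 (cluster 9, 2.69%) and 1 of 1 (cluster 10, 3.52%), and most of these members passed the minimum only with their LPS UMIs.

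Some members reached 50 UMIs only with their LPS UMIs, which favours genes that are higher with LPS. With the minimum set on the control library alone, a choice made after the data were seen, 8 of 9 members were higher in cluster 0 (2.83% of all genes under this rule). The counts were 6 of 6 in cluster 1 (2.36%), 5 of 6 in cluster 2 (1.94%), 5 of 6 in cluster 3 (0.946%), 4 of 6 in cluster 4 (1.93%), 4 of 5 in cluster 5 (2.43%) and 6 of 6 in cluster 6 (3.14%). Little was left in the small clusters, with 2 of 3 in cluster 7 (2.01%), 1 of 1 in cluster 8 (0.831%) and no member counted in clusters 9 and 10. Over all clustered cells this minimum gave 8 of 9 (2.75% of 12592 genes), with *Tnfaip3* no longer counted. *Rela* was the counted member that fell short of 2-fold in clusters 2, 3, 4 and 5, with *Nfkbib* beside it in cluster 4. With the minimum on both libraries together, 9 of the 10 members were higher over all clustered cells and none was at 0.5-fold or less, while 3.36% of 13228 genes were higher and 8.05% were at 0.5-fold or less.

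**Figure D1:**
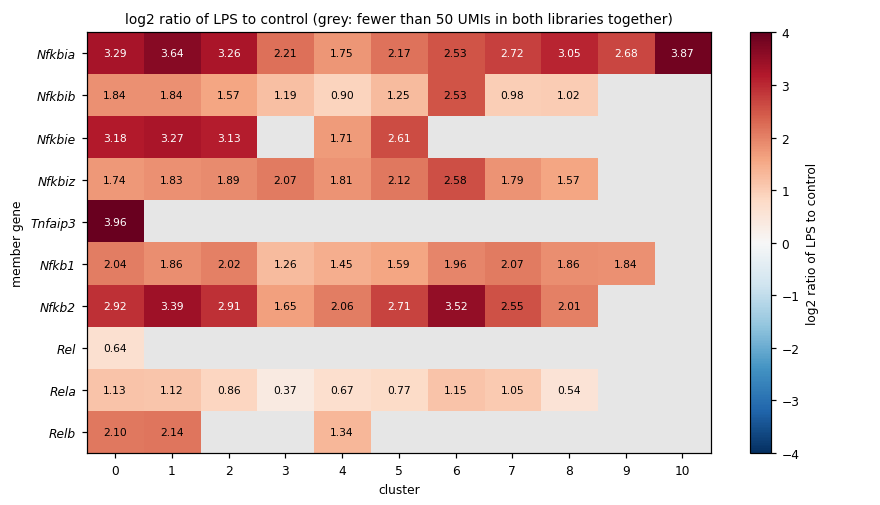
Heat map of the log2 ratio of LPS to control (0.5 UMI added to each sum) for the 10 members, in rows, and the 11 clusters, in columns; grey fields had fewer than 50 UMIs in both libraries together. Every filled field is above 0, from 0.37 for Rela in cluster 3 to 3.96 for Tnfaip3 in cluster 0. Some filled fields, such as Tnfaip3 in cluster 0 (10 control and 133 LPS UMIs), reached the minimum only with their LPS UMIs. This favours values above 0. Grey fields lie on both sides of 0, for example -1.64 for Rel in cluster 7 and 4.28 for Tnfaip3 in cluster 3.

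**Figure D2:**
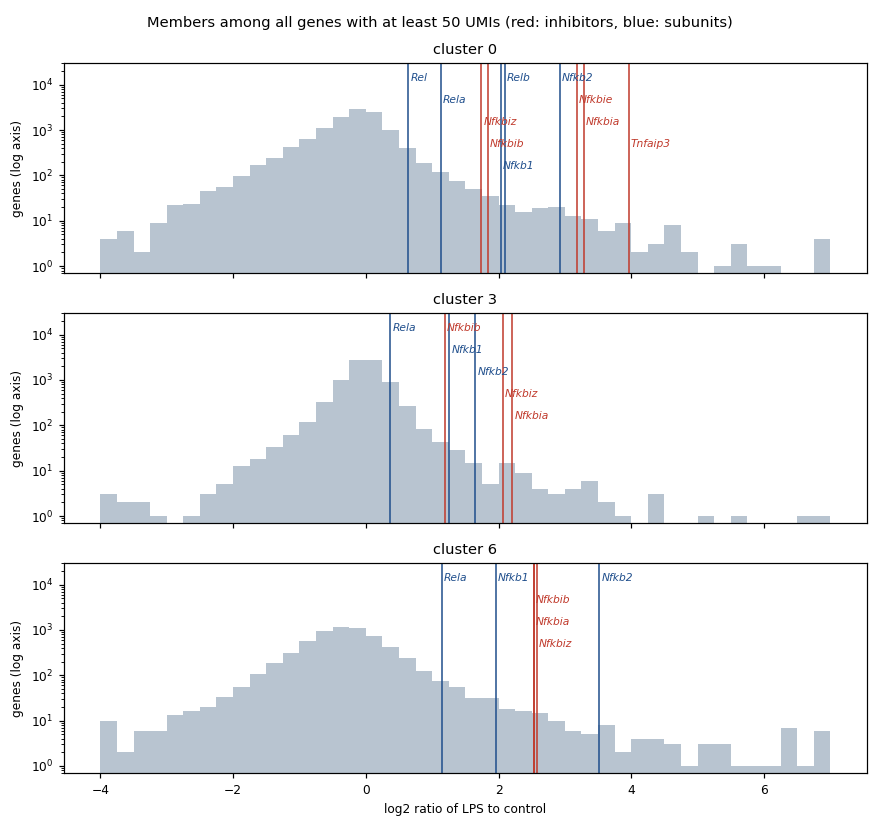
Histograms of the log2 ratio of LPS to control over all genes with at least 50 UMIs in clusters 0, 3 and 6 (number of genes on a log axis; end bars also hold genes past the ends), with vertical lines at the members. The bulk of genes lies near 0, with medians of -0.13, -0.00 and -0.30, and the members lie to the right of these medians. Closest to the bulk are Rela in cluster 3 (0.37, with 9.42% of counted genes higher) and Rel in cluster 0 (0.64, with 6.11% higher).

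The median log2 ratio of the counted members was 2.07 in cluster 0, 1.45 in cluster 3 and 2.53 in cluster 6, and over all genes of these clusters it was -0.13, -0.00 and -0.30. These medians describe the members and are not a test of the list. They use the minimum on both libraries together, which 1 member of cluster 0 passed only with its LPS UMIs, and no member of clusters 3 and 6.

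*Nfkbia*, which encodes IκBα, the inhibitor that NF-κB restores first after its degradation, gave the most UMIs of the list, 11382 in control and 75473 with LPS. Control cells of cluster 0 held 57.4 CPM of it (95% interval 55.9 to 59) and LPS cells 562 CPM (557 to 568), which is a ratio of 9.79 (9.51 to 10.1). All intervals cover counting error only. Cluster 1 went from 47.4 to 592 CPM (12.5-fold, 11.7 to 13.3) and cluster 2, which has no name, from 80.1 to 765 CPM (9.56-fold, 8.86 to 10.3).

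Endothelial cells already had high *Nfkbia* in saline. Cluster 4 had 239.6 CPM (231 to 249) in control and 806 CPM (788 to 824) with LPS, a ratio of 3.36 (3.22 to 3.52), the lowest of the 11 clusters. Cluster 5 went from 154 to 693 CPM, 4.51-fold (4.14 to 4.91). In macrophages the level was 119 CPM (108 to 132) in control and 692 CPM (659.6 to 725) with LPS, 5.79-fold (5.18 to 6.5), so the level with LPS was within the counting interval of cluster 5. Cluster 3, ICA cells and cardiomyocytes, had 53.5 CPM (48.3 to 59.2) in control and 247 CPM (234 to 261) with LPS, 4.62-fold (4.12 to 5.19).

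The small clusters 7, 8 and 9 had *Nfkbia* ratios of 6.6 (5.49 to 8), 8.33 (6.25 to 11.3) and 6.48 (4.52 to 9.5). Cluster 10, with 16 control and 26 LPS cells, had 7 and 121 *Nfkbia* UMIs and a ratio of 15.6 (7.34 to 39.6). The order of the clusters changed with treatment. In control the highest levels were in clusters 4, 5 and 6, whose intervals did not overlap each other. The wide interval of cluster 9 (59.8 to 116 CPM) overlapped that of cluster 6. The lowest levels were in clusters 1, 8, 10, 3 and 0, of which neighbours overlapped. With LPS cluster 4 led as a point value, within the wide interval of cluster 10 (629.8 to 907 CPM). Clusters 2, 10, 5 and 6 overlapped in turn, as did 1, 7, 0 and 9. Cluster 3 was last, with no overlap to cluster 8 above it (397 CPM, 360.0 to 437). Across the 10 clusters with at least 50 cells per library, the highest level was 5.05-fold the lowest in control and 3.26-fold with LPS, and without cluster 3 the LPS span was 2.03-fold, from 397 CPM in cluster 8 to 806 CPM in cluster 4.

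**Figure D3:**
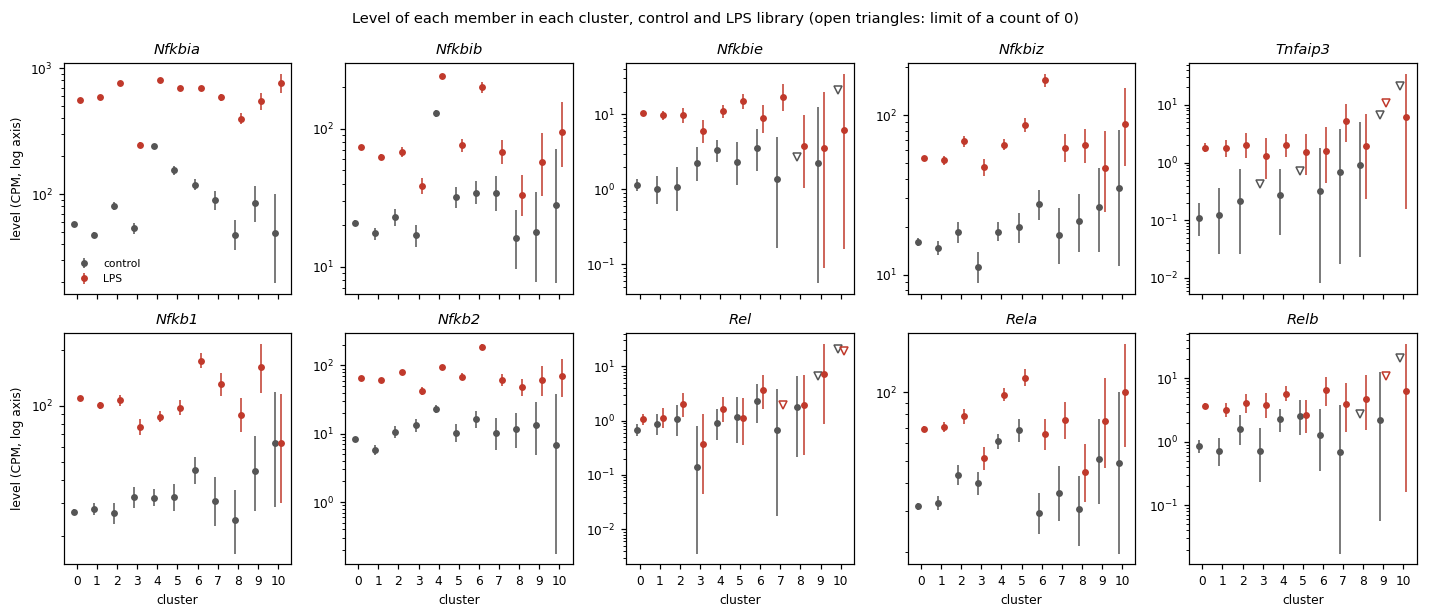
Level of each member (CPM, log axis) in clusters 0 to 10 in the control library (grey) and the LPS library (red), with exact 95% Poisson intervals as bars; open triangles mark the limit that a count of 0 allows. For Nfkbia the LPS points are above the control points in all 11 clusters, and cluster 3 has the lowest LPS point, 247 CPM.

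*Nfkbib*, which encodes IκBβ, a slower inhibitor that is not always degraded with IκBα, had a cell type pattern of its own. Its level in control was 129 CPM (122 to 136) in endothelial cluster 4 and between 16.2 and 34.4 CPM in every other cluster. With LPS cluster 4 rose to 241 CPM (231 to 251), 1.87-fold (1.75 to 2), which missed the 2-fold rule. Macrophages went from 34.4 CPM (28.2 to 41.5) to 199 CPM (182 to 217), 5.8-fold (4.69 to 7.21), and came next to cluster 4 with LPS. Cluster 0 went from 20.6 to 73.9 CPM, 3.59-fold (3.4 to 3.78), and cluster 3 from 16.8 to 38.5 CPM, 2.29-fold (1.82 to 2.89). Endothelial cluster 5 had 31.8 CPM in control and 75.6 CPM with LPS, so the high level was not shared by both endothelial clusters.

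*Nfkbie* encodes IκBε, an inhibitor that is induced later than IκBα in many cells. It was sparse, with 215 UMIs in control and 1312 with LPS. In cluster 0 it had 104 UMIs (1.15 CPM) and 771 UMIs (10.5 CPM), a ratio of 9.1 (7.4 to 11.3). Ratios were 9.79 (6.39 to 15.6) in cluster 1, 6.35 (3.25 to 13.8) in cluster 5 and 3.31 (2.25 to 4.94) in cluster 4. Clusters 3 and 6 were below the minimum, with 16 and 33 UMIs in cluster 3 and 11 and 22 UMIs in macrophages.

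*Nfkbiz* encodes IκBζ, a nuclear IκB that is made on stimulation and works with p50 at secondary response genes. Its highest LPS level was in macrophages, 27.6 CPM (22.1 to 34.1) in control and 165 CPM (149.7 to 182) with LPS, 5.99-fold (4.74 to 7.65). Cluster 0 went from 16 to 53.5 CPM, 3.33-fold (3.14 to 3.54), and cluster 4 from 18.6 to 65.3 CPM, 3.51-fold (3 to 4.13). In cluster 3 *Nfkbiz* had 11.2 CPM (8.84 to 13.9) and 47.1 CPM (41.5 to 53.2), 4.22-fold (3.27 to 5.5). The *Nfkbiz* ratio of cluster 3 was above that of cluster 0 as a point value, with overlapping intervals. Its *Nfkbia* ratio was below that of cluster 0, 4.62 against 9.79, with intervals apart. With LPS the *Nfkbiz* level of cluster 3 was 88.0% (77.3 to 99.8) of that of cluster 0, and its *Nfkbia* level was 44.0% (41.6 to 46.4). In control these values were 69.6% (54.7 to 87.3) and 93.3% (83.8 to 104). The part of these levels that came from other cells was not tested.

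*Tnfaip3* encodes A20, which edits ubiquitin chains on signalling proteins upstream of the IκB kinases. Its UMIs were few, 21 in control and 235 with LPS over all clusters, or 0.138 CPM (0.0852 to 0.21) and 1.84 CPM (1.61 to 2.09). The ratio, 13.4 (8.56 to 22), was the largest point value of the 10 members over all clustered cells. In cluster 0 there were 10 and 133 UMIs, 16.3-fold (8.6 to 34.8). Cluster 3 had no *Tnfaip3* UMI in control, which allows up to 0.424 CPM, and 7 with LPS (1.28 CPM, 0.513 to 2.63), and macrophages had 1 and 4. Outside cluster 0 this gene did not reach 50 UMIs in any cluster, so its clusters could not be ordered.

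Among the subunits, *Nfkb2*, which encodes p100 and its product p52 of the non-canonical branch, had the largest ratio over all clustered cells, 7.06 (6.69 to 7.47). In macrophages it had 51 UMIs in control and 471 with LPS, 16.4 CPM (12.2 to 21.5) and 189 CPM (173 to 207), a ratio of 11.6 (8.66 to 15.8). That was above the *Nfkbia* ratio of the same cells, 5.79 (5.18 to 6.5), with no overlap of the intervals. Cluster 0 went from 8.49 to 64.5 CPM, 7.6-fold (7.04 to 8.21), cluster 1 from 5.83 to 61.1 CPM, 10.5-fold (8.8 to 12.6), and cluster 4 from 23 to 96.2 CPM, 4.18-fold (3.64 to 4.82). Cluster 3 had the smallest ratio of the counted clusters, 3.15 (2.46 to 4.04).

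*Nfkb1*, which encodes p105 and p50, moved less and more evenly. Its ratio was 4.12 (3.93 to 4.31) in cluster 0, from 26.8 to 110.5 CPM, and 3.89 (3.21 to 4.74) in macrophages, from 44.9 to 175 CPM. In cluster 4 it was 2.73 (2.41 to 3.1) and in cluster 3 2.39 (2.03 to 2.82). The macrophage level was the highest of the clusters with at least 50 cells per library in both conditions, though its intervals, 37.8 to 53 CPM and 159 to 192 CPM, overlapped those of cluster 9 and, in control, those of clusters 5 and 7.

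*Rela* encodes the p65 subunit, the main activating partner of p50. Its level in cluster 0 was 31.6 CPM (30.4 to 32.8) in control and 69.3 CPM (67.4 to 71.2) with LPS, 2.19-fold (2.1 to 2.3). Macrophages had a ratio of 2.22 (1.71 to 2.9), and the endothelial clusters 4 and 5 had ratios of 1.6 (1.44 to 1.76) and 1.71 (1.48 to 1.98). Cluster 3 had 282 UMIs in each library, 39.8 CPM (35.3 to 44.8) and 51.5 CPM (45.6 to 57.8), a ratio of 1.29 (1.09 to 1.53). Among clusters with at least 50 cells per library the endothelial clusters had the highest *Rela* levels, 60.9 and 68 CPM in control and 97.3 and 116 CPM with LPS in clusters 4 and 5, with the wide intervals of cluster 9 overlapping both.

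*Relb*, the partner of p52, had 156 UMIs in control and 486 with LPS. It was 4.32-fold (3.34 to 5.64) higher in cluster 0, 4.49-fold (2.6 to 8.18) in cluster 1 and 2.56-fold (1.57 to 4.28) in cluster 4. In cluster 5 there were 11 and 12 UMIs, a ratio of 1.02 (0.411 to 2.55), which does not separate a rise from a fall. *Rel*, which encodes c-Rel, a subunit best known from lymphocytes and myeloid cells, had 119 and 155 UMIs, 0.78 and 1.22 CPM, a ratio of 1.56 (1.22 to 2). In macrophages *Rel* had 7 and 9 UMIs (2.25 and 3.62 CPM), too few to separate the libraries.

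As the members moved by different factors, the makeup of the subunit transcripts differed between the libraries. In cluster 0 *Rela* made up 46.1% of the UMIs of the 5 subunits in control and 27.8% with LPS, while *Nfkb2* went from 12.4 to 25.9% and *Nfkb1* from 39.2 to 44.4%. In macrophages *Nfkb2* made up 17.3% in control and 43.1% with LPS, and *Rela* 31.3 and 14.9%. Cluster 3 had 46.3 and 29.6% *Rela*, close to the shares of cluster 0. Shares of this kind depend on how well the 3′ end of each transcript was captured, so they compare libraries and clusters and not the amounts of the proteins.

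The UMIs of the 5 inhibitor genes per 100 UMIs of the 5 subunit genes give a quotient within the same cells, which needs no scaling between libraries. It was 139 (135 to 144) in control and 282 (277 to 287) with LPS in cluster 0, 119 and 303 in cluster 1, and 148 and 335 in cluster 2. Cluster 3 had 97.4 (86.8 to 109) and 195 (181 to 211), a 2.01-fold change near the 2.02-fold of cluster 0. The endothelial cluster 4 started at 328 (308 to 349) and reached 391 (375 to 407), and macrophages went from 196 (170.2 to 227) to 242 (226 to 260.3), with 1.19-fold and 1.24-fold changes. The intervals of the libraries just overlapped in macrophages and were apart in cluster 4. *Nfkbia* weighed most in the inhibitor sum, with 60.2% of it in control and 80.1% with LPS in cluster 0. *Nfkbiz*, counted here with the inhibitors, made up 16.8 and 7.62%.

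**Figure D4:**
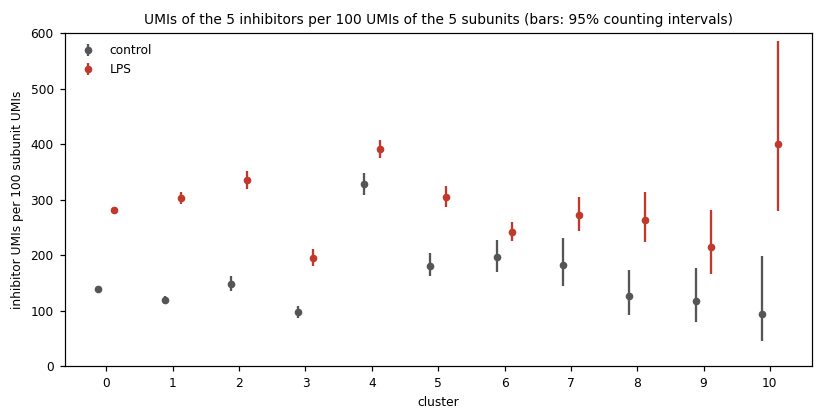
UMIs of the 5 inhibitor genes per 100 UMIs of the 5 subunit genes (vertical axis, from 0) in clusters 0 to 10 for the control (grey) and LPS (red) library, with 95% counting intervals. The LPS points are above the control points in each cluster, with the narrowest steps in cluster 4 (328 to 391) and cluster 6 (196 to 242).

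Because LPS cells had fewer UMIs, shares of cells with a UMI were compared after each cell was thinned to 3000 UMIs; 75 clustered LPS cells were shallower and left out. No cluster in these data is known to lack *Nfkbia*, so no share could serve as a background level, and a share counts cells with a UMI and not cells that express the gene. In cluster 0, 15.8% (14.9 to 16.7) of 6600 control cells and 79.8% (78.8 to 80.7) of 7024 LPS cells had an *Nfkbia* UMI (49.6 and 98.7% without thinning). UMIs per positive cell went from 1.14 to 2.17. This count is tied to the share, since a higher mean level raises both, so it is not a separate result. The share of cells with 4 or more *Nfkbia* UMIs was 0.0303% in control and 11.3% with LPS.

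The clusters differed in the share of cells without an *Nfkbia* UMI. With LPS 20.2% of cluster 0, 16.0% of cluster 4 and 17.6% of macrophages had no *Nfkbia* UMI in 3000, but 53.0% of cluster 3 had none; the control values were 84.2, 52.6, 65.8 and 87.3%. Without thinning, 32.9% of control and 62.6% of LPS cells in cluster 3 had an *Nfkbia* UMI. The median mitochondrial share of UMIs per cell was 17.9% in control and 17.3% with LPS in cluster 3, and 3.37 and 2.94% in cluster 0. The part of this difference in the shares of cells was not tested. For *Rela*, 8.7% (8.03 to 9.4) of control and 19.1% (18.2 to 20.1) of LPS cells of cluster 0 had a UMI (34.5 and 49.6% without thinning), and in cluster 3 the shares were 11% (8.96 to 13.3) and 13.7% (11.6 to 16.1), with overlapping intervals (27.6 and 25.8% without thinning). *Nfkb2* went from 5.34% (3.02 to 8.65) to 43.8% (38 to 49.7) of macrophages (14.9 and 73.2% without thinning).

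Counting any of the 5 inhibitors, 25.2% of thinned control cells and 86.4% of LPS cells of cluster 0 had a UMI. The shares of cluster 3 were 20.5 and 56.5%, those of cluster 4 were 64.7 and 93.8%, and those of macrophages were 46.6 and 94.1%. At least 2 different inhibitors were seen in 2.06 and 27.3% of cluster 0 and in 7.47 and 60.3% of macrophages. For any of the 5 subunits the shares were 18 and 52.1% in cluster 0, 20.5 and 37.7% in cluster 3, and 25.6 and 71.4% in macrophages.

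**Figure D5:**
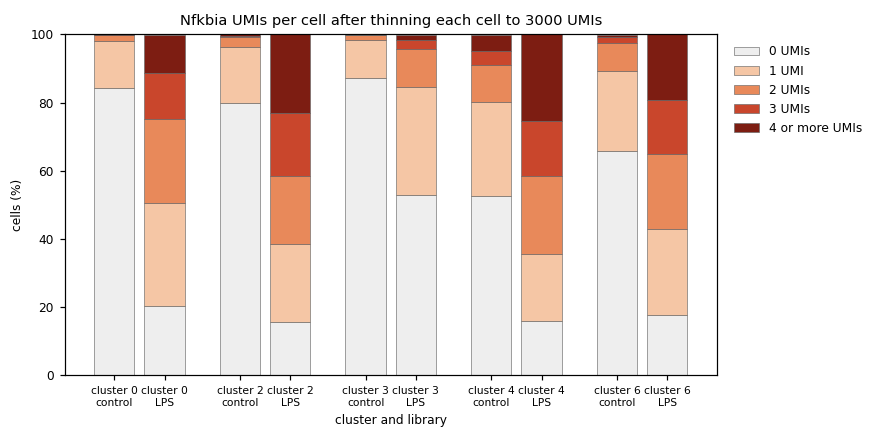
Stacked bars of the share of cells (%) with 0, 1, 2, 3 or 4 and more Nfkbia UMIs after thinning each cell to 3000 UMIs, for the control and LPS library in clusters 0, 2, 3, 4 and 6. With LPS the part with 0 UMIs is 15.5 to 20.2% in clusters 0, 2, 4 and 6 and 53.0% in cluster 3.

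The study is about ICA cells, which it stains for tyrosine hydroxylase and, in the sequencing, finds by *Ddc* and by *Dbh*, the gene of dopamine beta-hydroxylase. It reports higher *Nfkbia* with LPS in its own ICA sub-cluster, by a test over cells. Here the cells of cluster 3 with a *Dbh* UMI were taken, which are not the study's own sub-cluster. The 4 ICA genes summed to 167 CPM in control and 239 CPM with LPS in these cells. Cells of cluster 3 without a *Dbh* UMI still held 51.3 and 58 CPM. The split was made without thinning and does not part ICA cells cleanly from other cells. Cluster 3 held 156 control and 121 LPS cells with a *Dbh* UMI, and these had median depths of 8200.0 and 5379 UMIs. Their summed *Nfkbia* was 85 and 162 UMIs, 58.1 CPM (46.4 to 71.9) and 224 CPM (191 to 261), a ratio of 3.85 (2.94 to 5.07), and the cells of cluster 3 without a *Dbh* UMI had 4.79 (4.21 to 5.46). *Nfkbiz* had 14 and 49 UMIs, 7.07-fold (3.84 to 13.9), against 3.8-fold (2.86 to 5.1) in the cells without, so the intervals of the 2 classes overlapped for both genes. *Rela* had 59 and 26 UMIs, a ratio of 0.891 (0.539 to 1.44), against 1.36 (1.13 to 1.63). *Nfkb1* and *Nfkb2* had ratios of 2.49 (1.63 to 3.82) and 2.81 (1.59 to 5.03), and *Tnfaip3* and *Rel* had no UMI in these cells of either library, which allows up to 2.05 CPM in control and 4.15 CPM with LPS. Cells with a *Dbh* UMI had cardiomyocyte markers at 6634 CPM in control and 7104 CPM with LPS, close to the 7115 and 7454 CPM of those without. Their fibroblast markers summed to 3866 CPM in control and 3190.4 CPM with LPS, where cluster 0 had 11531 and 10636 CPM. The part of the member levels of these cells that came from other cells was not tested.

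Of 27 other genes of the pathway, 26 were in the table by a unique symbol, and 24 were counted over all clustered cells. Of these, 4 were at least 2-fold higher, and none was at 0.5-fold or less; over all counted genes these shares were 3.36 and 8.05%. The median log2 ratio of the 24 was 0.12, with -0.13 over all genes. *Bcl3*, a nuclear IκB relative that binds p50 and p52, was 3.78-fold (3.56 to 4.01) higher. *Tnip1* and *Tnip3*, which encode partners of A20, were 3.83-fold (3.74 to 3.92) and 6.04-fold (5.41 to 6.75) higher, and *Traf1*, an adaptor of TNF receptors, 3.58-fold (3.39 to 3.77). Over all clustered cells, none of the 10 counted genes of the IκB kinase and upstream group passed the rule in either direction. Their median log2 ratio was 0.07. Their ratios ran from 0.604 (0.421 to 0.857) for *Ikbkg* to 1.8 (1.72 to 1.89) for *Traf2*. In cluster 2 *Traf2* passed the rule, at 2.21-fold (1.81 to 2.71). *Ikbkb* and *Chuk*, the catalytic kinases, had ratios of 1.28 (1.2 to 1.36) and 1.38 (1.28 to 1.48). *Map3k7*, the gene of the kinase TAK1, which most cells use, had no UMI in either library, so a low count in this table need not mean a low transcript level.

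The feedback genes also differed between clusters. *Tnip3* was at 0.928 CPM in control and 11.7 CPM with LPS in cluster 0, 12.6-fold (10.1 to 16), whereas macrophages had 66.1 CPM (57.4 to 75.8) in control and 100.2 CPM (88.1 to 113) with LPS, 1.51-fold (1.25 to 1.83). In macrophages *Otulin*, which encodes a linear ubiquitin hydrolase and was singled out after its values were seen, was at 109 CPM in control and 29.4 CPM with LPS, a ratio of 0.27 (0.207 to 0.348), and in cluster 0 its ratio was 1.02 (0.958 to 1.1). Of all genes in macrophages, 12.1% were at 0.5-fold or less. *Itch* in cluster 0 (9.01% of all genes) and *Pdlim2* in clusters 5 (4.41%) and 7 (3.37%) were also at 0.5-fold or less. *N4bp1* was at least 2-fold higher in clusters 4 to 7, and *Nfkbid* in cluster 4. Cluster 3 had 2 of 16 counted genes higher, where 1.68% of all genes were: *Bcl3* at 3.53-fold (2.61 to 4.83) and *Traf1* at 2.82-fold (1.76 to 4.63), and *Tnip1* there had 1.63-fold (1.47 to 1.8) against 4.02-fold (3.88 to 4.15) in cluster 0.

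Over 20 points, the 10 clusters with at least 50 cells per library in both libraries, the genes whose log2(CPM + 1) was most like that of *Nfkbia* among 9895 genes with at least 500 UMIs were *Birc3* (r = 0.98), *Icam1* (0.95), *Neurl3* (0.95), *Maff* (0.94) and *Nfkb2* (0.94). For *Rela*, the genes most alike included *Rarb* (0.91), *Neurl3* (0.89), *Birc3* (0.87) and *Nfkbia* (0.86). The points of a library share its depth and treatment, so these values are descriptions. *Tnfaip3*, with fewer than 500 UMIs, was not compared.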

How the data were processed

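The 2 libraries were analysed from raw counts: the authors deposited UMI counts per gene and cell barcode as whole numbers, with no normalization, and the cluster and cell type of each cell. Cell Ranger 2.2.0 and Seurat 2.3.4 stand in the submitters' processing notes, and the study clustered after RunCCA with FindClusters (resolution 0.5). The genome build and annotation of the counts are not given in the sources used here.

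UMIs were summed per cluster and library and divided by all UMIs of the class (CPM). No cell was filtered further, apart from 2 control and 8 LPS cells without a cluster, which held 1 *Nfkbiz* and 1 *Nfkb1* UMI of the members. Control cells had 3682 to 70604 UMIs and LPS cells 2821 to 46594. The 95% intervals are exact (Poisson for levels, conditional for ratios, Clopper-Pearson for shares), and 3 UMIs were taken as the limit where none was seen. No doublet caller was run; an alternative dropped the 8% of cells with the most UMIs. Thinning to 3000 UMIs was without replacement (seed 1), and log2 ratios had 0.5 UMI added to each sum. Since cells are not replicates, no test was made. Python 3.11.15, numpy 2.4.6, scipy 1.17.1 and pandas 2.3.3 were used.

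The members, lists and rules were chosen with earlier results of these data known. All 10 members are named, as are the other pathway genes at least 2-fold higher or at most 0.5-fold over all clustered cells, and promoters are printed for the 3 members with the largest and the 2 with the smallest log2 ratio. *Rnf11* was not found by symbol in the table. Promoters are from RefSeq (GRCr8). A gene among those most like *Rela* is not reported here.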

Additional observations from a re-analysis of the deposited data

How the results depend on the processing

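Each library stands for 1 condition, so counting intervals do not hold the spread between animals or preparations, and depth limits *Tnfaip3*, *Rel*, *Relb* and *Nfkbie* in all but the largest clusters. No paired analysis was possible because there is only 1 library per group. The 6 other settings that were tried on 77 log2 ratios were levels as the mean of the cells' own CPM, no mitochondrial genes in the denominator, centring on the median gene, no cells of the top 8% by UMIs, cells under 10% mitochondrial UMIs, and thinning to 3000 UMIs. Of 462 values none changed sign and 49 moved past their counting interval. Most of the moves came from thinning to 3000 UMIs (24 of 77) and from centring on the median gene (16 of 77). The *Nfkbia* log2 ratio moved from 3.29 to 3.42 in cluster 0 and from 2.53 to 2.84 in cluster 6 with centring on the median gene, which takes off the median of all genes. It moved from 2.53 to 2.16 in cluster 6 with thinning, and from 2.21 to 2.55 in cluster 3 in cells under 10% mitochondrial UMIs, where most cells of the cluster have more; the cause was not tested. The counts of members at least 2-fold higher stayed within 1.5 times in 102 of 108 cases. A fold of 3 left 3 of 5 in cluster 3 and 3 of 5 in cluster 8. A minimum of 50 UMIs in the control library, chosen after seeing the data, left 2 of 5 in cluster 7, 1 of 5 in cluster 8, 0 of 2 in cluster 9 and 0 of 1 in cluster 10, since fewer members were counted. The difference in the share of cells with a UMI moved past its interval in 53 of 80 cases when cells were thinned to 1500 UMIs or not thinned, it fell to 0 in 2, and its sign turned in 4, *Nfkbie* in cluster 6 at both settings and, without thinning, *Tnfaip3* in cluster 6 and *Rela* in cluster 3. The inhibitor quotient moved in 6 of 48 cases. The share of all genes at least 2-fold higher moved in 11 of 24 cases with a minimum of 20 or 200 UMIs, in cluster 3 from 1.68 to 2.2 and 1.23%.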
